A study of Homo sapiens with 54 samples.

Results

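After 1 h of the synthetic progestin R5020, 39437 of the 173115 progesterone receptor (PR) regions of T47D cells lay in chromatin that was already acetylated before hormone while PR had not been called there. These regions, called pre-acetylated PR sites below, were chosen by overlap: each R5020 PR region on chromosomes 1 to 22 or X had to share at least 1 bp with an H3K27Ac region of vehicle-treated cells and none with a PR region of vehicle-treated cells. They made up 22.8% of all R5020 PR regions (95% Wilson interval 22.6 to 23.0) and 23.6% of the 167221 found with hormone only. The other R5020 PR regions fell into 3 groups. Newly acetylated sites (10418) were hormone-only and had H3K27Ac in the R5020 list alone, unacetylated sites (117366) were hormone-only and had H3K27Ac in neither list, and 5894 sites had PR with vehicle too. A site missing from the vehicle PR list was below the threshold of that list, which does not show that PR was absent from it.

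The study used chromatin immunoprecipitation followed by sequencing (ChIP-seq) in T47D, an established human breast cancer line labelled as positive for the estrogen and progesterone receptors. Cells of the vehicle group received ethanol for 1 h and cells of the hormone group received R5020 for 1 h; no genetic change is named for either group. Antibodies were directed against PR, H3K27Ac, Maf1 and Brf1, which act on RNA polymerase III, and 4 subunits of that enzyme: POLR3A, POLR3C and the paralogs POLR3G and POLR3GL. Each antibody and treatment had 3 libraries and 1 deposited list of regions, so no value below has an error between replicates, and all results rest on 1 cell line. Intervals cover the counting error of regions only, and neighbouring regions are not independent.

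PR is a nuclear receptor that binds DNA as a dimer once progestin is present, at response elements made of inverted half-sites around a short spacer. H3K27Ac, acetylation of a lysine in the tail of histone H3, marks active promoters and enhancers, the short regulatory regions that act at a distance. Maf1 represses RNA polymerase III, the enzyme that makes transfer RNA (tRNA), and Brf1 is part of the factor that brings this polymerase to tRNA genes.

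The sequences below are selected examples of promoters under pre-acetylated PR sites. All come from the RefSeq promoter table of GRCh38.p14, read 5′ to 3′ on the strand of the gene and ending at or before its start, and capitals mark the 9-base core of the progesterone response element, ACANNNTGT. LSM4 and PHACTR4 are promoters under named regions at the highest −log10 q. That value was shared by 99 sites, those at ANKRD17 and ZNF784 among them. IRS2 is a progestin-responsive gene, and the other genes were chosen after their values were seen. CBLB, TXNIP, MAP3K6, EEF2K and CAMKK1 hold a longer form of the element near the PR summit, the base with the strongest signal, in which a G stands 2 bases before the core and a C stands 2 bases after it. ANKRD17 and ZNF784 hold no core in their windows although their PR fold was among the highest. The printed set is not typical. Of the 8274 promoter windows under a site, 3.18% held the core and 0.314% the longer form. Over all promoter windows the shares were 5.37% and 0.391%.
PHACTR4, chr1:28438081-28438149, plus strand: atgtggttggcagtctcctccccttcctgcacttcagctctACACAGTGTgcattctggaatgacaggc
IRS2, chr13:109786584-109786670, minus strand: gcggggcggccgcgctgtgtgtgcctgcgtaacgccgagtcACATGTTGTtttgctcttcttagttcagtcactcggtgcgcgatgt
CBLB, chr3:105868389-105868479, minus strand: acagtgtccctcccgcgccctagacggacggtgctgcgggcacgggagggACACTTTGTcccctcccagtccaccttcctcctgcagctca
TXNIP, chr1:145996707-145996797, minus strand: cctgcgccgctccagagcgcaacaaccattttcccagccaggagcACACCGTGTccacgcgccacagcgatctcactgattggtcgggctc
MAP3K6, chr1:27367049-27367139, minus strand: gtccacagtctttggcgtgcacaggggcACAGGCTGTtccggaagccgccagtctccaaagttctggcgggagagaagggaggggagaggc
EEF2K, chr16:22206053-22206143, plus strand: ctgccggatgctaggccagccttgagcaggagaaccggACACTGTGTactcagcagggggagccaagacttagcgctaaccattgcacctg
CAMKK1, chr17:3890744-3890818, minus strand: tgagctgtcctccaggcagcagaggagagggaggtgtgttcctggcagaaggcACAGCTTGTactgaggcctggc
LSM4, chr19:18323236-18323326, minus strand: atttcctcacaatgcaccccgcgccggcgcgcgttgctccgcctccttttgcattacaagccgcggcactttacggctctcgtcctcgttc
ANKRD17, chr4:73223058-73223131, minus strand: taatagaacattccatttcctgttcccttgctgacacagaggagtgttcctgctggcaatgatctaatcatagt
ZNF784, chr19:55624749-55624816, minus strand: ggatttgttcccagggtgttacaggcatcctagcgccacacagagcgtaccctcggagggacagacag

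The PR fold, the signal over the caller's background that the authors deposited for each region, was 34.8 at CBLB, a ubiquitin ligase gene, with the core 9 bases from the summit. It was 21.4 at TXNIP, a thioredoxin inhibitor, where the distance was 4 bases. At MAP3K6, EEF2K and CAMKK1, all of which encode protein kinases, the PR folds were 19.6, 16.6 and 14.2, and the core lay within 25 bases of the summit in each. None of these 5 sites shared a base with an R5020 Maf1 region. PHACTR4, a phosphatase and actin regulator whose printed window belongs to a start inside the gene, had the highest PR fold in the list (56.6), a Maf1 fold of 32.2, and its core 160 bases from the PR summit. Insulin receptor substrate IRS2 had a PR fold of 21.7, a Maf1 fold of 3.75, and its core 29 bases from the summit. LSM4 (PR fold 56.6), ANKRD17 (56.4) and ZNF784 (56.4) had R5020 Maf1 folds of 12.6, 11.2 and 16.2. A match to the core is a description of the letters and does not show that PR bound there.

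The vehicle lists held 6662 PR, 88869 H3K27Ac and 3048 Maf1 regions on the chromosomes used, and the R5020 lists held 173115, 112542 and 22638. The depth behind the lists is unknown. All 8 luminal marker genes tested, among them KRT8, ESR1, PGR and GATA3, had vehicle H3K27Ac within 1 kb of an end of the gene. Of the basal or mesenchymal markers 2 of 5 did (TP63 and ZEB1), while KRT5, KRT14 and VIM did not, and of the blood markers CD3E did while PTPRC did not. The titles and treatment tags disagree for 4 libraries titled R5020 and tagged as ethanol: 2 of POLR3C, 1 of POLR3G and 1 of POLR3GL. Every R5020 value of these 3 subunits below follows the titles.

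Pre-acetylated PR sites spanned the whole range of PR signal. Their PR fold ran from 1.58 to 56.6 with a median of 7.26 and quartiles of 4.11 and 17.0, and their median width was 399 bp. Vehicle H3K27Ac, which the rule required, lay at 26.0% of all R5020 PR regions. The median PR fold was 9.77 at newly acetylated sites, 5.42 at unacetylated sites and 11.1 at sites present with vehicle. When all hormone-only PR regions were divided into deciles by PR fold, each a group of equal size, 7793 pre-acetylated sites (19.8%) fell in the highest decile (fold 21.1 to 56.6) and 4654 in the lowest. PR signal was used to draw up the list, so these values describe the sites and test nothing. At the edge of the rule, the 1502 sites that shared 50 bp or less with vehicle H3K27Ac had a median PR fold of 5.61, and the 1302 hormone-only sites that missed H3K27Ac by 50 bp or less had 5.68. An R5020 Maf1 region lay at 5.46% of the former and 4.99% of the latter. Both Maf1 shares were low beside the 24.5% over all pre-acetylated sites given below. An R5020 H3K27Ac region lay at 51.5% of the sites just inside the rule and 44.9% of those just outside it. Over all pre-acetylated sites that share was 85.7%, and the median overlap with vehicle H3K27Ac was 293 bp.

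H3K27Ac was still called at most pre-acetylated PR sites after R5020. An R5020 H3K27Ac region shared a base with 33812 of the 39437 sites (85.7%, 85.4 to 86.1), where the share over all R5020 PR regions was 28.7%. The other 5625 sites had lost the call. Because the rule fixed the vehicle share at 100%, the R5020 share could only fall, and this count alone shows no direction of change. Sites that lost the call lay in weaker and narrower vehicle H3K27Ac: the median vehicle H3K27Ac fold was 3.62 there and 8.13 where the call stayed, and the median vehicle width was 469 bp against 1835.5 bp. Within 1 kb of a gene end lay 6.70% of the former and 30.8% of the latter, and an R5020 Maf1 region was found at 3.16% and 28.0%.

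A comparison that the rule did not fix is the one among vehicle H3K27Ac regions. Of the 88869, 31918 held a pre-acetylated PR site and 54146 held no R5020 PR region. R5020 H3K27Ac was found at 86.4% of the former and 54.6% of the latter, a difference of 31.8 percentage points (Newcombe interval 31.2 to 32.4), where the share over all vehicle H3K27Ac regions was 67.2%. The groups also differed before hormone. Vehicle H3K27Ac regions that held a site had a median width of 1014 bp and a median fold of 5.01, and those without PR had 364 bp and 3.39. Within quartile groups of vehicle width the mean difference was 13.8 points, and within quartile groups of vehicle fold it was 16.3 points. The direction stayed the same in every quartile group, with a smaller difference than over all regions. In the narrowest quartile group (208 to 295 bp) the call stayed at 54.9% of regions with a site and 35.7% without PR, and in the widest quartile group at 98.99% and 94.5%.

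The plot of retained H3K27Ac by PR fold and distance to a gene end shows where acetylation stayed. Within 1 kb of a gene end the share was between 94.6% and 98.5% in every decile of PR fold. More than 50 kb from any end it was 68.5% in the lowest decile, 62.0% in the fourth, and 90.4% in the highest decile. The distance groups therefore lay closest together at the strongest PR sites.

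**Figure D1:**
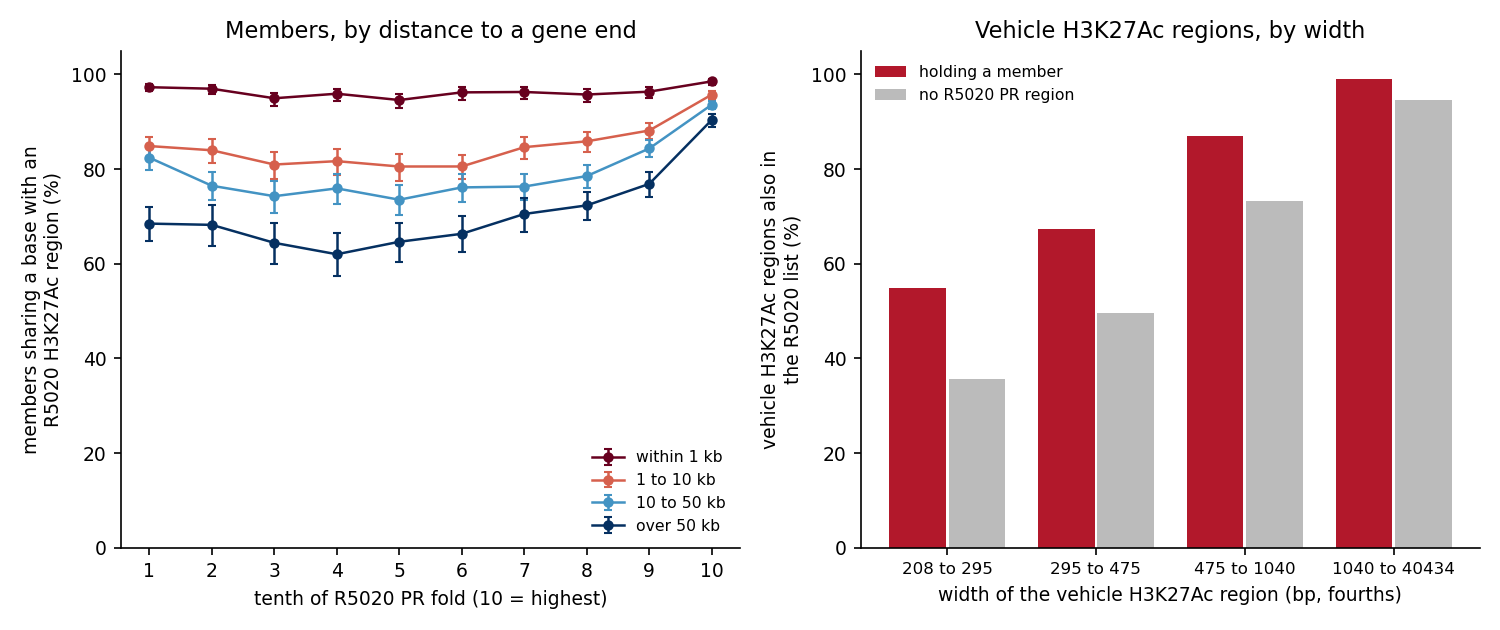
Left, share of pre-acetylated PR sites (%) that share a base with an R5020 H3K27Ac region, by decile of R5020 PR fold, for 4 ranges of distance to the nearest protein-coding gene end; bars are 95% Wilson intervals. Right, share of vehicle H3K27Ac regions (%) that are also in the R5020 list, by quartile group of region width in bp, for regions holding a pre-acetylated PR site (red) and regions without an R5020 PR region (grey). Sites within 1 kb of a gene end stay above 94%, sites over 50 kb away rise to 90.4% in the highest decile, and the red bar is the higher one in all 4 groups.

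PR and H3K27Ac signals did not peak at the same base. The median distance from the PR summit to the nearest vehicle H3K27Ac summit was 332 bp (quartiles 163 and 723 bp), and 23.0% of sites had one within 150 bp. The PR summit lay inside a vehicle H3K27Ac region at 80.4% of sites and inside an R5020 H3K27Ac region at 69.6%. In the highest decile of PR fold, R5020 H3K27Ac covered 69.5% of sites at the PR summit itself and up to 79.7% at 350 bp from it, while vehicle H3K27Ac covered 74.5% at the summit and no more than 74.9% nearby. These strongest sites thus had less R5020 H3K27Ac at the summit than on its flanks. So did newly acetylated sites (47.3% at the summit, up to 50.9% nearby) and sites present with vehicle (78.4% and up to 84.1%). The latter also had less vehicle H3K27Ac at the summit (84.1%, up to 89.3% nearby). At 1000 bp from the summit, R5020 H3K27Ac covered 60.6% of the highest decile and vehicle H3K27Ac 49.3%. In the other deciles the R5020 list covered 47.8% at that distance and the vehicle list 50.9%, and R5020 coverage was highest at the summit (69.6%). The direction between treatments thus differed between these sets at 1000 bp, but not at the summit, where R5020 coverage was below vehicle coverage in both (vehicle 81.9% in the other deciles), nor at 3000 bp, where it was above in both (35.2% and 28.6% in the highest decile, 27.9% and 27.7% in the others). The vehicle curve is the one that the rule shaped.

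**Figure D2:**
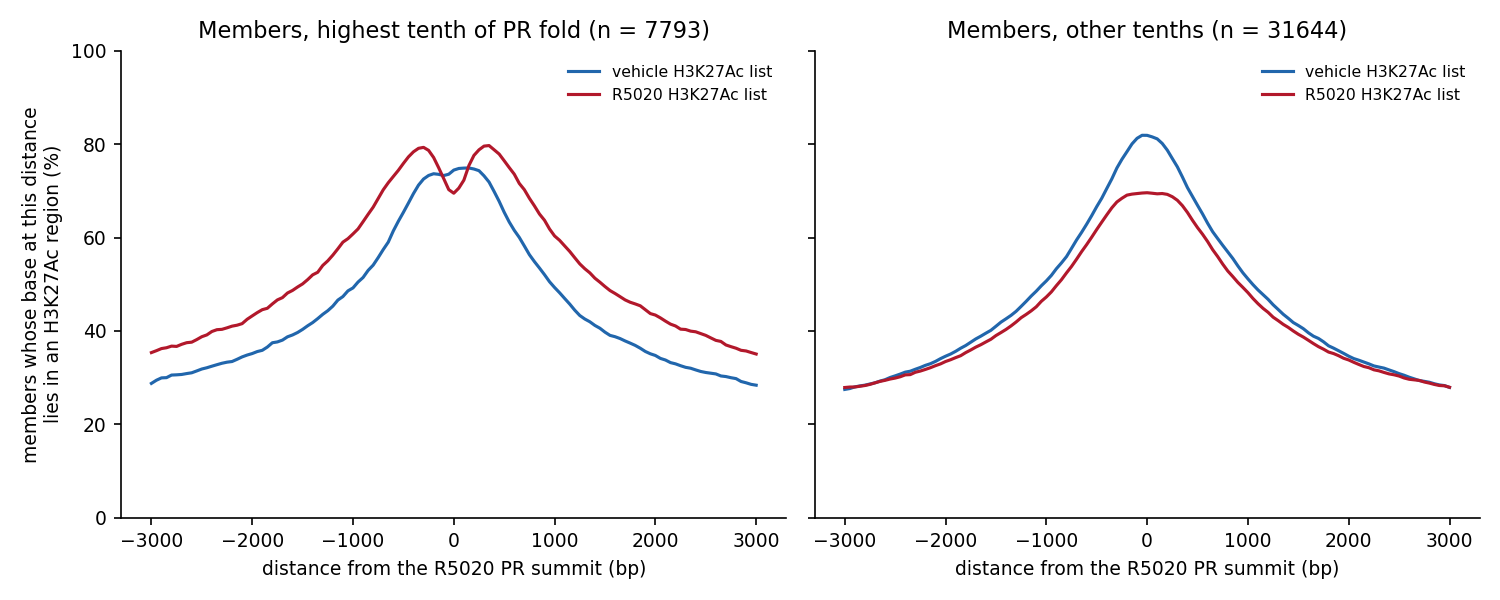
Share of pre-acetylated PR sites (%) whose base at a given distance (bp) from the R5020 PR summit lies in a vehicle (blue) or R5020 (red) H3K27Ac region, for the highest decile of PR fold (left, n = 7793) and the other deciles (right, n = 31644). On the left the red curve dips to 69.5% at the summit between flanks of up to 79.7% and runs above the blue curve on both flanks; on the right it peaks at 69.6%, under the blue peak of 81.9%.

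Where the H3K27Ac call stayed, the width of each vehicle region was set beside the summed width of all R5020 regions sharing bases with it. Of the vehicle H3K27Ac regions that held a site, 27586 had an R5020 counterpart. Their median width was 1240.5 bp with vehicle, and the median summed width was 1467 bp with R5020. The R5020 regions covered a median of 88.8% of the vehicle bases, and 24.2% of these vehicle regions lay in 2 or more R5020 regions. For retained regions without PR the medians were 464 and 574 bp, with 75.9% of bases covered. In the widest quartile group of vehicle width these medians fell without PR, from 1409.5 to 1242.5 bp. With a site they were 2140 and 2186 bp there. Summed widths do not show whether single regions became wider or narrower.

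Pre-acetylated PR sites had Maf1 more often in the R5020 list than in the vehicle list, which is much shorter. An R5020 Maf1 region shared a base with 9650 sites (24.5%, 24.0 to 24.9), where the share over all R5020 PR regions was 10.2%. The vehicle Maf1 list covered 765 of the sites (1.94%), beside 1.35% of all R5020 PR regions. It covered 26.1% of the sites present with vehicle, which the rule left out. When the R5020 Maf1 list was limited to its 3048 regions of highest −log10 q, the length of the vehicle list, it covered 1446 sites (3.67%). Of the sites, 8918 had Maf1 only in the R5020 list, 732 in both and 33 only in the vehicle list. The R5020 Maf1 share was 16.9% at newly acetylated sites, 1.61% at unacetylated sites and 73.9% at sites present with vehicle. Pre-acetylated sites were thus 7.57 points (6.72 to 8.39) above newly acetylated sites and 22.9 points (22.4 to 23.3) above unacetylated ones.

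The difference from newly acetylated sites depended on position and on the Maf1 list. Among sites more than 10 kb from any gene end it was 1.68 points (0.587 to 2.75), and with the R5020 Maf1 list limited to 3048 regions it was 0.585 points (0.192 to 0.953). Within deciles of PR fold the mean difference was larger, at 12.5 points. All of these values kept the same direction.

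**Figure D3:**
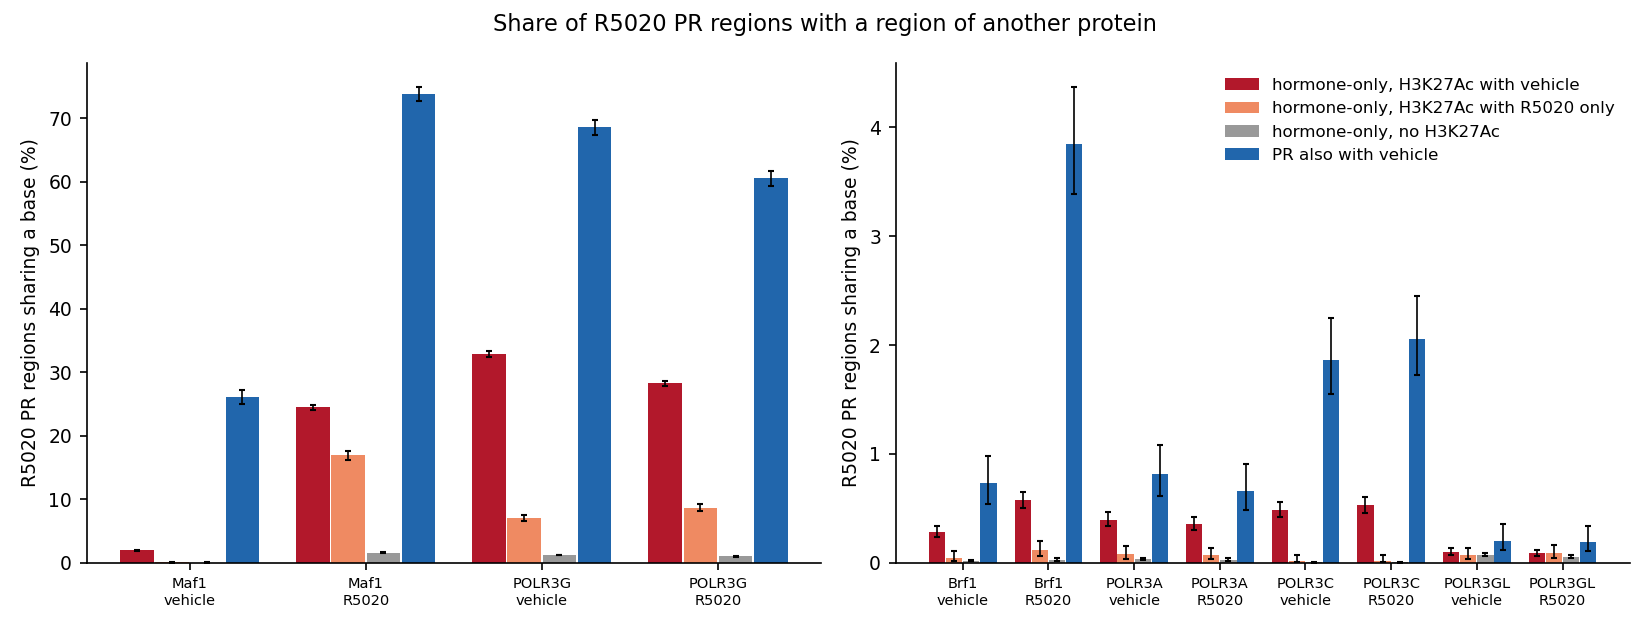
Share of R5020 PR regions (%) that share a base with a vehicle or R5020 region of Maf1 and POLR3G (left) and of Brf1, POLR3A, POLR3C and POLR3GL (right, smaller scale), for the 4 groups of PR regions; bars are 95% Wilson intervals, and R5020 values of POLR3C, POLR3G and POLR3GL follow the titles. Pre-acetylated PR sites (red) have R5020 Maf1 at 24.5% and vehicle Maf1 at 1.94%, and sites present with vehicle (blue) have the higher share for each protein.

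The strength of PR and the distance to a gene end divided the Maf1 share in different ways. Within 1 kb of an end, Maf1 was found at 32.6% of sites in the lowest decile of PR fold, at 33.9% in the ninth and at 68.2% in the highest, and no decile below the highest was under 31.7% or over 36.4%. More than 50 kb from an end it was 7.02% in the lowest decile, 2.51% in the eighth, 9.39% in the ninth and 64.6% in the highest. In the highest decile the 4 distance groups lay between 61.8% and 68.2%. The rise from the ninth to the highest decile also appeared at newly acetylated sites, from 5.11% to 58.2%, and at unacetylated sites, from 1.35% to 25.2%. The vehicle Maf1 list showed no such rise over these deciles of R5020 PR fold, with 3.37% of pre-acetylated sites in the lowest and 1.17% in the highest. The rule left out the sites with vehicle PR, where vehicle Maf1 was at 26.1%. These low vehicle shares therefore cannot show how Maf1 followed PR before hormone.

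**Figure D4:**
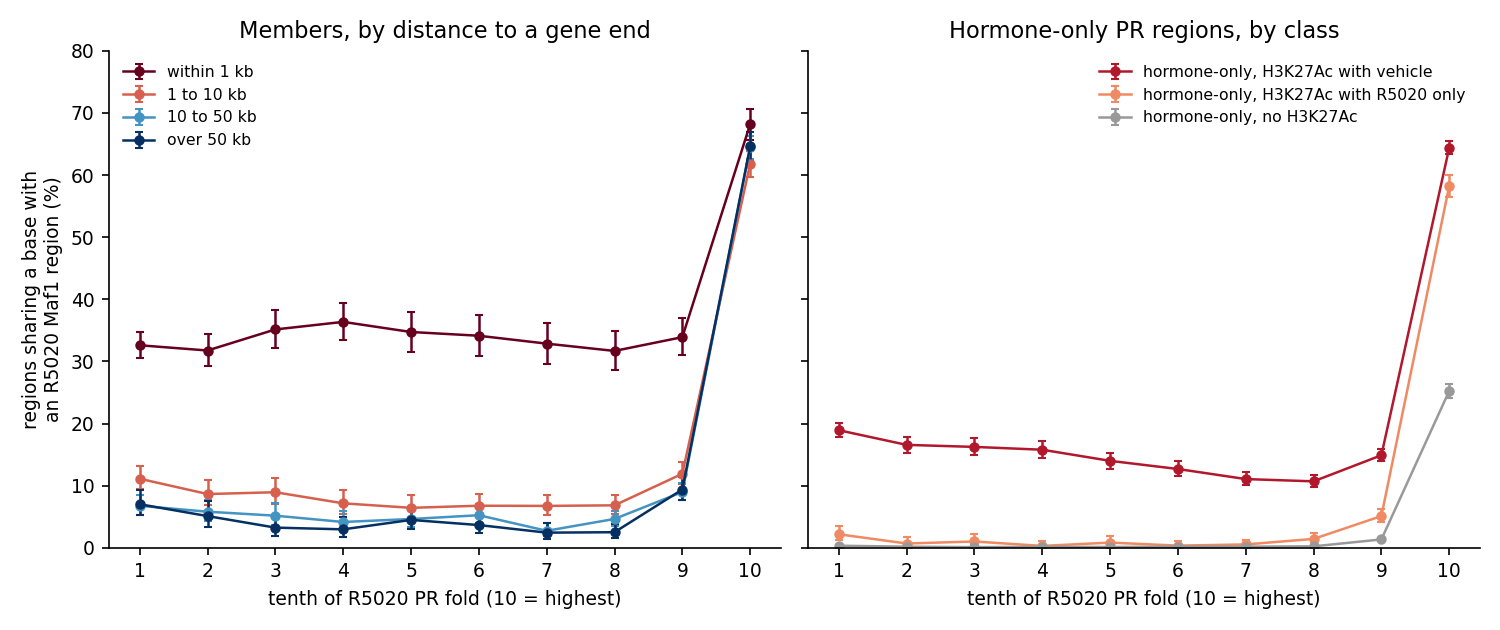
Share of hormone-only PR regions (%) that share a base with an R5020 Maf1 region, by decile of R5020 PR fold; left, pre-acetylated PR sites by distance to the nearest protein-coding gene end; right, the 3 groups of hormone-only regions. Bars are 95% Wilson intervals. Sites within 1 kb of an end stay between 31.7% and 36.4% below the highest decile, where all 4 distance groups reach 61.8% to 68.2% in the highest decile.

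Within the highest decile the Maf1 share kept rising with PR fold. Between the 90th and 95th percentile of PR fold it was 39.0% at pre-acetylated sites, between the 95th and 98th 72.9%, between the 98th and 99th 92.1%, and above the 99th 99.5% (1057 of 1062 sites). At newly acetylated sites the same steps were 26.8%, 65.6%, 90.1% and 98.2%, and at unacetylated sites 10.5%, 39.8%, 77.2% and 97.2%. Among the strongest 1% the 3 groups therefore lay within a few points of each other, and below that range Maf1 was less frequent at unacetylated sites of the same PR fold range.

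The Maf1 summit lay close to the PR summit at strong sites. Over the sites with R5020 Maf1 the median distance was 41 bp, and 75.5% had a Maf1 summit within 150 bp. In the highest decile of PR fold the median was 21 bp (quartiles 10 and 42 bp), and in the other deciles it was 116 bp (45 and 279 bp). Sites with Maf1 within 1 kb of a gene end, taken without the highest decile, had a median of 133 bp. Among pre-acetylated sites, the summits of both proteins were thus closest where PR was strongest. Over all sites with Maf1, the median distance was 21 bp at newly acetylated and 26 bp at unacetylated sites. At sites present with vehicle it was 46 bp. Wider PR regions also had Maf1 more often: 7.46% of pre-acetylated sites in the narrowest width quartile group (151 to 203 bp) and 42.0% in the widest (422 bp and over). The same groups had 1.43% and 35.6% at newly acetylated sites, and 0.142% and 8.93% at unacetylated sites.

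Among acetylated regions, those that held PR also had Maf1 more often. R5020 Maf1 lay in 32.3% of the vehicle H3K27Ac regions that held a pre-acetylated PR site and in 2.16% of those without R5020 PR, where the share over all vehicle H3K27Ac regions was 15.0%; the vehicle Maf1 shares were 5.00% and 0.445%. Within 1 kb of a gene end the R5020 shares were 54.2% and 8.96%, and more than 50 kb away 22.2% and 0.660%. The groups differ in width and fold as given above, and the part of that in the Maf1 shares was not tested.

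The polymerase III proteins other than POLR3G were rare at pre-acetylated PR sites. R5020 Brf1 was found at 226 sites (0.573%, against 0.288% of all R5020 PR regions), with 118 of them in the R5020 list only and 108 in both lists. Vehicle Brf1 was found at 112 sites (0.284%, against 0.105% of all). POLR3A, the largest subunit of the enzyme, was found at 140 sites with R5020 (0.355%, against 0.127% of all) and at 156 with vehicle (0.396%, against 0.143%), and 135 of these were the same sites. POLR3A was in the R5020 list only at 5 sites, beside the 118 for Brf1. The Brf1 list held 370 regions with vehicle (median fold 18.7) and 1157 with R5020 (median fold 5.04). The POLR3A lists held 688 and 1019 regions, with median folds of 10.9 and 5.08. No count at equal list length was made for Brf1 or POLR3A, so the part of list length in these counts was not tested. Of the 226 Brf1 sites, 115 had no R5020 POLR3A, and 57 of those were in the highest decile of PR fold. Maf1, Brf1 and POLR3A were found together with R5020 at 64 sites.

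The R5020 values of the next 3 subunits include the libraries tagged as ethanol. POLR3C was found at 190 sites with vehicle (0.482%, against 0.177% of all R5020 PR regions) and at 208 with R5020 (0.527%, against 0.194%). POLR3GL was found at 38 sites with vehicle (0.0964%, against 0.0826%) and at 34 with R5020 (0.0862%, against 0.0676%). POLR3G, the paralog of POLR3GL, was far more frequent: vehicle POLR3G shared a base with 12976 sites (32.9%, against 11.1% of all R5020 PR regions) and R5020 POLR3G with 11146 (28.3%, against 9.73%). POLR3G was found in both lists at 8229 sites, in the vehicle list only at 4747 and in the R5020 list only at 2917. Its R5020 share was 48.6% within 1 kb of a gene end and 9.33% beyond 50 kb.

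Pre-acetylated PR sites reached 81 of 422 nuclear tRNA genes, or 19.2%, when a site within 200 bp was counted. Newly acetylated sites reached 3, unacetylated sites 16 and sites present with vehicle 11. All 81 genes had POLR3A and Brf1 in both lists, while R5020 Maf1 was within 200 bp of 52 of them (64.2%, 53.3 to 73.8) and vehicle Maf1 of 7. Among the 79 tRNA genes with vehicle H3K27Ac and no R5020 PR, R5020 Maf1 was found at 30 (38.0%, 28.1 to 49.0), and over all tRNA genes the share was 22.3%. In that second set POLR3A was at 76 of the 79 genes in both lists, and Brf1 at 74 with vehicle and 75 with R5020. Vehicle Maf1 was at 2 of the 79, and at 3.32% of all tRNA genes. Over all tRNA genes POLR3A was at 85.3% with vehicle and 85.1% with R5020, and Brf1 at 71.1% and 73.2%. Chromosome 17 held 15 of the 81 genes among its 33, and chromosome 6 held 14 among its 149.

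The 78 sites within 200 bp of a tRNA gene had a median PR fold of 5.63, from 2.15 to 49.3, and 9 were in the highest decile. The one with the highest fold was at isoleucine tRNA gene TRI-TAT1-1, 629 bp from PLEKHG2, with no R5020 Maf1 region. At the lysine tRNA genes TRK-TTT3-1 and TRK-TTT3-2, 9108 bp from MDM4, a p53 inhibitor, the PR fold was 35.6 and the Maf1 fold 6.35. A glutamine tRNA gene beside ALOXE3, TRQ-CTG1-5, had a PR fold of 35.5 and no Maf1 region. At TRIM55 on chromosome 8, beside the tyrosine and alanine tRNA genes TRY-GTA5-2 and TRA-AGC8-2, the PR fold was 37.4 and the Maf1 fold 12.6. Of these 4 strong sites, then, 2 had an R5020 Maf1 region.

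Pre-acetylated PR sites were nearer to genes than other hormone-only sites. An end of any protein-coding gene was within 1 kb at 27.3% (26.9 to 27.8) of them, where the share over all R5020 PR regions was 9.77%. It was 5.27% at newly acetylated, 2.80% at unacetylated and 38.9% at sites present with vehicle. The difference from unacetylated sites was 24.5 points (24.1 to 25.0). Members carry vehicle H3K27Ac by rule, and 20.0% of all vehicle H3K27Ac regions lay as close to an end, which leaves a difference of 7.36 points (6.85 to 7.88) from that background. The median distance to an end was 7627 bp for pre-acetylated sites and 36102 bp for unacetylated sites, and 66.3% of pre-acetylated sites lay inside the span of a protein-coding gene. The gene table gives no strand or exons, so starts and ends of genes, introns and exons were not separated.

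In promoters, pre-acetylated PR sites covered GC-rich windows. Of 34789 RefSeq windows of 300 bases (250 before the start and 50 after it), 8274 shared a base with a site. The core ACANNNTGT, searched on both strands, was present in 3.18% of these, in 6.06% of all other windows and in 5.37% of all windows, a difference of -2.88 points (-3.34 to -2.39) between the first pair. Against windows with vehicle H3K27Ac and no R5020 PR, which held the core in 2.39%, the sign was the opposite, at 0.793 points (0.249 to 1.33). The GC box GGGCGG was in 70.1% of windows under a site, in 63.5% of acetylated windows without PR and in 44.9% of all windows. The median G and C content was 65.7% under a site and 58.7% over all windows, so the comparison with all windows also compares base composition.

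The core was more frequent where the PR summit itself lay in the promoter and PR was strong. Of the 308 windows that held the summit of a site in the highest decile of PR fold, 44 had the core (14.3%, 10.8 to 18.6), and of the 3242 that held a summit of the other deciles only, 108 did (3.33%, 2.77 to 4.01). The difference was 11.0 points (7.42 to 15.3). The median distance from core to summit was 24.5 bases in the highest decile and 35 in the others. In the highest decile 22 of the 44 cores lay within 25 bases of the summit. The half-site TGTTCT, whose first letters can overlap the end of the core, showed the same order, with 24.4% and 10.6%, beside 14.8% of all windows. GC boxes ran the other way, at 49.7% and 71.3%, and so did median G and C content, at 59.0% and 66.0%. Promoters with the summit of an unacetylated site held the core most often among the sets compared, at 23.2% of 555, with a G and C content of 47%. The longer form was in 5 of the 308 windows (1.62%), in 17 of the 3242 (0.524%) and in 0.391% of all windows.

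**Figure D5:**
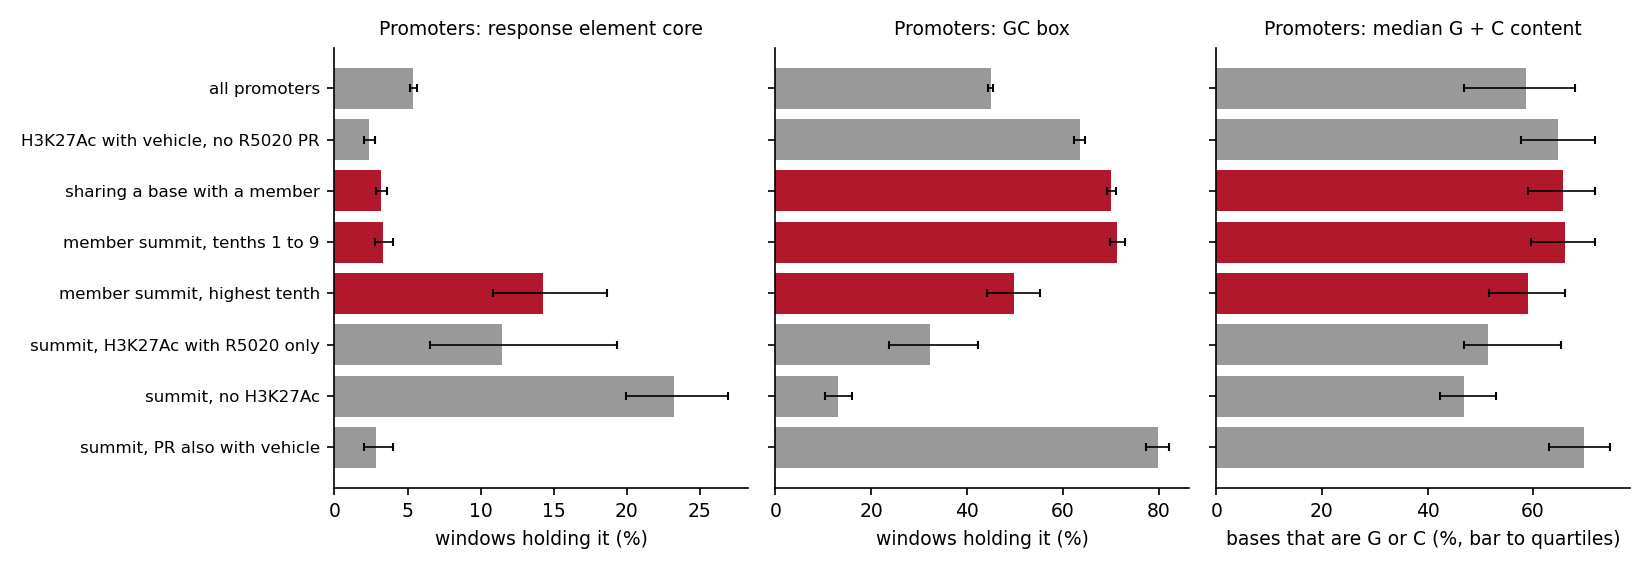
Share of promoter windows (%) holding the response element core (left) and the GC box (middle), with 95% Wilson intervals, and median G and C content (%) with lines to the quartiles (right), for sets of promoter windows; red bars are windows under pre-acetylated PR sites. The core is at 14.3% where a summit of the highest decile of PR fold lies in the window, against 3.33% for the other deciles, while the GC box falls from 71.3% to 49.7%.

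The regions with the highest −log10 q were taken as named examples, with at most 1 for each nearest protein-coding gene. The deposited −log10 q reached a ceiling of 421, shared by 99 sites, and the fold a ceiling of 56.6, shared by 50, so ties were settled by position and all of the first 10 lie on chromosome 1. Every one of the 10 had R5020 Maf1 and R5020 H3K27Ac, and none had vehicle Maf1. At the peroxisome import gene PEX14 the site at chr1:10514154-10518151 was 3998 bp wide, with a Maf1 fold of 24.7. At MEAF6, a histone acetyltransferase subunit gene, the site at chr1:37498988-37499786 had a vehicle H3K27Ac fold of 2.77 and an R5020 H3K27Ac fold of 10.2, each within its own list. At PHACTR4 (chr1:28437335-28438622) R5020 Brf1 was called as well, with no POLR3A. The R5020 Maf1 folds of the 10 ran from 14.4 beside BSDC1 to 32.2 at PHACTR4. Others were at IFFO2, the actin-capping gene CAPZB, the endothelin-converting enzyme gene ECE1, NIPAL3 and LOC124900417.

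Strong sites were also found far from genes and at gene ends. More than 50 kb from any protein-coding gene, the first 5 by rank lay nearest FAM240C, LYZL1, EEA1, NUFIP1 and GATA6. The site nearest FAM240C, at chr2:242103003-242104083 in the noncoding gene LINC01881, had the highest Maf1 fold of these (38.7) and R5020 Brf1. The site 124346 bp from GATA6, a transcription factor gene, had a Maf1 fold of 18.9. Within 1 kb of a gene end the first 5 were at NEBL, BFAR, TOM1L2, LSM4, an RNA-processing gene, and the kinase gene PIM2, with Maf1 folds from 12.6 at LSM4 to 20.9 at NEBL. Sites that shared bases with R5020 Maf1, Brf1 and POLR3A at once were led by one 121358 bp from CPEB4 (chr5:173766169-173766991), with a PR fold of 53.4 and POLR3A in both lists but Brf1 with R5020 only. It was followed by sites nearest OSBP, TRIM55, CDCA4 and PLEKHF1, all with Brf1 and POLR3A in both lists.

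Some vehicle H3K27Ac regions held many sites. Of the 31918 with any, 25166 held 1 and 6752 held 2 or more, and 42.4% of all sites lay in a region with another site. The region with most sites, 20, was chr12:53970918-54002393, 31476 bp across HOXC11, HOXC10, HOXC9 and HOTAIR, developmental regulators and a long noncoding RNA. The PR folds of its 20 sites ran from 2.24 to 34.4 (median 4.00), 5 had R5020 Maf1, and 97.3% of its bases stayed in R5020 H3K27Ac. A region at EDN1, the gene of endothelin, held 16 sites and 7 vehicle PR regions. Regions at the amino acid transporter gene SLC7A5 and at MIRLET7BHG, a microRNA host gene, held 15 each, and one at SATB1, a chromatin organiser, held 14. Vehicle PR regions lay in these too, with 2 at SLC7A5, 3 at MIRLET7BHG and 6 at SATB1, and 3 lay in the HOXC region. All sites of these 5 regions had R5020 H3K27Ac, whereas Maf1 was found at 1 to 6 sites of each. Wide regions have more room for sites, and the counts were not adjusted for width.

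Genes were then counted as holding a site when one lay inside the gene or within 10 kb of either end. Over all 19970 protein-coding genes the share was 65.5%, and over the 13630 with vehicle H3K27Ac at an end it was 86.0%. Most genes of the lists below have vehicle H3K27Ac at an end, so their counts are read against the second share. Of 14 progestin-responsive genes 11 held a site. FKBP5, a chaperone that binds steroid receptors, had 9 of its 46 R5020 PR regions in this group, with folds from 3.07 to 43.0, and 4 of the 9 had Maf1. TSC22D3, a glucocorticoid-induced leucine zipper gene, had 7, of which the strongest (fold 37.7) had no R5020 H3K27Ac and no Maf1. HSD11B2, which inactivates cortisol, had 4, among them one with a PR fold of 44.7 and R5020 Maf1 (fold 7.07). EGFR had 5 sites, the phosphatase gene DUSP1 had 4, and the growth factor gene AREG, KLF9 and the clock gene PER1 had 3 each. STAT5A, TNFSF11 and ZBTB16 held none, although ZBTB16 had 23 R5020 PR regions, and neither TNFSF11 nor ZBTB16 had vehicle H3K27Ac at an end.

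Luminal regulators had more sites per gene. All 12 held a site, with a median of 10 sites, beside a median of 2 over genes with vehicle H3K27Ac at an end. GRHL2 had 32, the estrogen receptor gene ESR1 28, GATA3 15, PGR, the receptor's own gene, 14, TFAP2A 14 and SPDEF 11. The strongest PR fold at PGR was 21.8, and 3 of its 14 sites had Maf1. ESR1 spans 472948 bp and GATA3 29866 bp, and longer genes have more room for sites. NR3C1, the gene of the glucocorticoid receptor, had 2.

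In the other lists the share of genes with a site was near or above the 86.0% of acetylated genes. Their median number of sites per gene was 5 for cell cycle, 4.5 for lipid synthesis, 4 for receptor chaperones, 4 for AP-1 and early response, 2.5 for cofactors and 2 for the polymerase III machinery, beside the median of 2 over acetylated genes. All 10 lipid synthesis genes held a site, led by the regulators SREBF2 with 19 and SREBF1 with 17 and the desaturase gene SCD with 12. The strongest site at SREBF1 was at the ceiling of PR fold, and all 4 sites at FASN, the fatty acid synthase gene, had R5020 Maf1. All 12 receptor chaperone genes held one, with 11 at DNAJB1 and 6 at FKBP4. So did all 9 genes of AP-1 and early response, with 9 at ATF3 and 7 at FOSL2. All 9 cell cycle genes held one as well, with 7 each at cyclin D1 (CCND1) and E2F1. Of 12 receptor cofactors 11 held one, with 7 at the methyltransferase gene CARM1 and none at KMT2D. Of 27 genes of the polymerase III machinery 24 held one, with 11 at BRF1 and 6 at BRF2, while GTF3C1, POLR3B and POLR3F had none. The gene of POLR3G had 1 site and that of its paralog POLR3GL had 4. Transcript levels were not measured, so none of these counts speaks of expression.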

How the data were processed

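ChIP-seq regions came from the 16 lists the authors deposited, in narrowPeak layout, 1 for each of 8 antibodies and 2 treatments. Their submitters' processing notes name cutadapt, Bowtie2, MACS2 and the genome build hg38; settings and versions, the control used and how the 3 libraries of a list were combined are not given in the sources used here. The authors deposited for each region a fold, a ratio of signal over background, and a −log10 q-value, and both served only for description, ranking and filtering inside one list. Lists hold no reads, so depth is unknown. Chromosomes 1 to 22 and X were kept.

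Regions shared bases when at least 1 bp overlapped. Gene ends and symbols came from a RefSeq table of GRCh38.p14 (19970 protein-coding and 422 tRNA genes) and promoters from its windows of 250 bases before to 50 after a start. No genome was used here, so motifs were counted in these windows instead of around all PR summits. With 1 list a group no test across replicates was possible and no p-value is given; Wilson and Newcombe intervals at 95% cover counting error. Overlap counting was tested on simulated data. Python 3.11.15, numpy 2.4.6, pandas 2.3.3, scipy 1.17.1 and matplotlib 3.10.9 were used.

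The sites, gene lists, markers and motifs were chosen with earlier results of these data known. Named regions followed a rule: sites ranked by −log10 q, then fold, then position, giving the first 10 with 1 for each nearest gene, the first 5 over 50 kb from any protein-coding gene, the first 5 within 1 kb of an end, the first 5 with R5020 Maf1, Brf1 and POLR3A, and the 5 vehicle H3K27Ac regions holding most sites. Of each list of genes up to 6 with most sites and those with none were named, and single genes beyond that were named after their values were seen. Alternatives were stricter lists, other overlap rules, and matching by fold, width or position. Some genes that the rule would name are not reported here.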

Additional observations from a re-analysis of the deposited data

How the results depend on the processing

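The number of pre-acetylated PR sites was 34867 with a PR −log10 q of at least 5, 31715 with the PR summit inside vehicle H3K27Ac and 36583 with no vehicle PR region within 1 kb. It fell to 25748 with a PR fold of at least 5 and to 6935 under a reciprocal overlap of 50%. The difference in retained H3K27Ac (31.8 points) was 32.3 points with −log10 q of at least 5, 28.4 points with 50% shared, and 16.3 and 13.8 points within quartile groups of fold and width. The Maf1 difference from newly acetylated sites (7.57 points) was 4.34 points with Maf1 −log10 q of at least 5, 3.37 points with the PR summit inside the Maf1 region, 12.5 points within deciles of PR fold and 1.68 points beyond 10 kb. Added after seeing the data were 0.585 points with equal numbers of Maf1 regions, 22.3 points against acetylated regions without PR and 22.9 points against unacetylated sites. The difference at gene ends (24.5 points) was 31.8 points within 5 kb, 22.1 points with −log10 q of at least 5, 22.0 points from the PR summit and, added later, 7.36 points against all vehicle H3K27Ac. The motif difference (-2.88 points) was -0.101 points for the longer form, whose interval includes 0. It reversed in the comparisons added later: 0.793 points against acetylated promoters without PR, 1.90 points when the PR summit lay in the window, and 11.0 points for the highest decile against the others. The cause was not tested. Motif windows around every PR summit, and motif shares within deciles of fold over all sites, were not run because no genome was used. No paired analysis was possible because each list stands for 3 libraries and carries no replicate, and for the same reason no replicate could be left out.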

Other observations

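Other motifs in promoter windows under pre-acetylated PR sites differed in frequency from all windows, and most were close to their frequency in windows with vehicle H3K27Ac and no R5020 PR. The AP-2 motif GCCNNNGGC, bound by transcription factors of luminal cells, was in 33.4% of the 8274 windows and in 23.2% of all windows. The GATA motif AGATAA was in 4.48% and 10.4%, the AP-1 motif TGANTCA in 4.36% and 7.69%, the forkhead motif TGTTTAC in 2.38% and 3.42%, and the core of the estrogen response element TCANNNTGA in 3.35% and 6.30%. In the acetylated windows without PR the shares were 31.1% for AP-2, 5.47% for GATA, 4.95% for AP-1, 2.42% for forkhead and 4.09% for the estrogen response element core. Where the window held the PR summit of a site in the highest decile of PR fold, the AP-1 share was 9.74% (6.91 to 13.6), against 4.10% (3.47 to 4.84) for the other deciles, and the GATA share 8.44% against 3.82%. The base composition of these sets differs, and its part in the shares was not tested. The B box letters GTTCGANNC were in 1.27% of windows under a site, 1.14% of acetylated windows without PR and 0.834% of all windows.

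On chromosomes 19, 17, 4 and 13, given as examples, the share of sites was nearer to that of vehicle H3K27Ac than to that of other hormone-only PR regions. Chromosome 19 held 5.27% of pre-acetylated PR sites, 1.45% of the other hormone-only PR regions and 6.20% of vehicle H3K27Ac regions. Chromosome 17 held 6.61%, 3.31% and 6.72%. Chromosome 4 held 3.52%, 5.65% and 3.27%, and chromosome 13 held 1.58%, 2.80% and 1.53%. Chromosomes 12, 14, 15 and 21 went the other way, with a share of sites nearer to that of other hormone-only PR regions. For chromosome 12 the shares were 4.88%, 4.99% and 5.05%.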
